A study of Mus musculus with 15 samples.

Results

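Myoblast fusion genes are described here as 9 genes chosen by name, Mymk, Mymx, Jam2, Jam3, Cdh2, Nphs1, Myof, Cdon and Tmem182, of 56953 genes in each deposited table, and each of the 9 symbols was found. Their RNA was followed in 15 bulk RNA-seq libraries of wild-type (WT) 129 mice, labelled as 10-week-old males, in a study of what transplanting a mouse's own muscle stem cells (MuSCs) does to its remaining MuSCs and to its hindlimb muscle. MuSCs are the resident stem cells that repair skeletal muscle, and here they were taken by biopsy. There were 3 libraries of MuSCs after transplantation, from an area that had received no cells, and 3 of MuSCs before it, from mice 5, 6 and 11 in both groups. Quadriceps femoris muscle gave 6 libraries of transplanted mice (4, 14, 94, 5, 6 and 11) and 3 of sham-operated mice (3, 192 and 12). The treatment label names transplantation for the sham libraries too, and sham is known from their titles. No time after surgery is given in the sources used here.

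Skeletal muscle fibres form when myoblasts, the progeny of MuSCs, leave the cell cycle, attach to one another and merge their membranes. Mymk encodes myomaker and Mymx encodes the micropeptide myomixer (also called myomerger), the muscle-specific pair that carries out the membrane merger, while cadherins, junctional adhesion molecules and nephrin work at the contact between cells. MuSCs at rest express little of this machinery, and it comes on as they activate and differentiate during repair.

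Mymx stands out among these genes for the small size of its product, so its coding sequence is shown. In the GENCODE annotation of GRCm38, 3 of its 4 coding transcripts share the reading frame below, of 84 codons before the stop, while the longest has 108 codons. Capitals mark the start and stop codons.
Mymx coding sequence: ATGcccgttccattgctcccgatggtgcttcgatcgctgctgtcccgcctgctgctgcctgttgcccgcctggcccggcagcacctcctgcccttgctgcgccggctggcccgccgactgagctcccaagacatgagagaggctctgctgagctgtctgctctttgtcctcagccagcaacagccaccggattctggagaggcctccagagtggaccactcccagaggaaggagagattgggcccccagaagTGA
Tmem182 is shown next because it was the one member that stood higher in muscle than in MuSCs. RefSeq promoters of GRCm38.p6, running from 250 bases before the annotated start of a gene to 50 after it, were at hand for 4 of the 9 members (Tmem182, Cdon, Myof and Nphs1). The plus-strand promoter of Tmem182 at chr1:40805351-40805650 is printed with its E-boxes, the letters CANNTG that basic helix-loop-helix factors such as MyoD can bind, in capitals.
Tmem182 promoter: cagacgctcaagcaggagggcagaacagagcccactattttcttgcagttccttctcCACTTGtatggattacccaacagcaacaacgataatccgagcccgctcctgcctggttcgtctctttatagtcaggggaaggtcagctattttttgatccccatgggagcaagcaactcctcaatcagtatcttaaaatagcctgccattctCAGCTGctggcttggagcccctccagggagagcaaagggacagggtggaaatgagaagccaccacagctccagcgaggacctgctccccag
It held 2 E-boxes, a motif that 72.3% of 32851 such promoters hold at least once, and 1 TATAAA, which 13.6% hold. The TATAAA lies on the strand opposite to the printed one, where the printed letters read tttata. On both strands the other motifs searched, CATTCC (the MCAT box, in 14.7% of promoters), the MEF2 box (3.19%) and the CArG box (1.63%), had no match in it. The promoters of Cdon, Myof and Nphs1 had no match to any of the 5 motifs.

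The libraries held 17.09 to 22.98 M estimated counts each (M for mega), and 17695 to 20121 genes were detected. All 8 MuSC markers, among them Pax7, Myf5 and Myod1, were detected in the MuSC libraries, with summed levels of 1361 to 1970 TPM after and 1511 to 2129 TPM before. The same sum was 875 to 1046 TPM in transplanted and 813 to 1067 TPM in sham muscle, so the sum was not particular. The named markers did differ. In muscle Pax7 was at 0.06 to 0.26 TPM, Myf5 at 0.14 to 0.81 TPM and Myod1 at 11.0 to 19.9 TPM. In MuSCs Pax7 was at 11.8 to 21.6 TPM, Myf5 at 86.55 to 155 TPM and Myod1 at 532 to 958 TPM. Des, Itga7, Vcam1 and Chrdl2, also in the sum, were not compared singly. Markers listed for mature myofibres were detected as well, 10 of 10, at 903 to 7271 TPM in sum after and 3929 to 12230 TPM before. They were uneven: Acta1 had 282 to 3391 TPM after and 1802 to 3964 TPM before. Myh4, an adult fibre myosin, had 0.05 to 1.63 TPM after and 0.60 to 2.32 TPM before. In muscle Myh4 had 5925 to 12570 TPM in transplanted and 9200 to 11990 TPM in sham libraries. Whether the sum in MuSCs came from mature fibres was not tested. Xist exceeded the sum of 4 Y-linked genes in 14 of the 15 libraries, which goes against the label of male. The exception was transplanted 4, where Xist was at 0.01 TPM and the Y-linked sum at 0.11 TPM. That sum lay within the 0.01 to 0.31 TPM of the other libraries, so Y-linked RNA was low in every library. The 6 MuSC libraries fall into 3 whose column names begin with a number (after 5, before 5 and before 11) and 3 whose names begin with a letter (after 6, after 11 and before 6). The number-first and letter-first libraries did not overlap in CPM, counts scaled to a common library size, for 56.8% of the 13512 genes tested, although the labels do not say what the names stand for.

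In MuSCs, 8 of the 9 members were detected in all 6 libraries and Nphs1 was nearly absent. The counts were lowest for Mymx, at 28 to 176 a library, and Tmem182 ran from 58 to 1387. On the TPM scale, which allows genes to be compared because it divides by gene length, Mymk had the highest median over the 6 MuSC libraries, 176 TPM. Cdon (95.8 TPM), Myof (79.1 TPM), Cdh2 (77.4 TPM) and Jam3 (51.1 TPM) came next, and the ranges of neighbours in this order overlapped. Jam3, at 39.8 to 59.6 TPM, lay wholly above Tmem182, at 1.22 to 32.9 TPM. Tmem182 (median 12.4 TPM), Jam2 (11.6 TPM) and Mymx (11.0 TPM) overlapped one another. Nphs1, nephrin, a contact protein needed for full fusion in zebrafish and mouse cells, had 1 count in after 5, 1 count in before 5 and none in the other 4 MuSC libraries.

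In quadriceps the order was different. Tmem182, encoding a membrane protein of muscle reported in mouse to hold fusion back, led with a median of 147 TPM and a range of 129 to 164 TPM, far above all other members. Jam2 followed at 6.86 to 10.7 TPM, above Jam3 at 2.54 to 6.06 TPM. Cdon, at 1.34 to 3.12 TPM, overlapped both Jam3 and Myof, the last at 1.02 to 2.93 TPM. Cdh2 was at 0.21 to 0.42 TPM, overlapping Mymk (0.06 to 0.49 TPM) and Mymx (0 to 0.92 TPM). Nphs1 had 0 counts in all 9 muscle libraries, which allows up to 0.0162 CPM over their 185 M counts, as far as counting error goes.

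Set side by side, the MuSC and muscle medians differed most for Mymk, at 176 TPM in MuSCs and 0.16 TPM in muscle, a ratio of 1103 by medians and 777 by means, on 1 to 11 counts a muscle library. Cdh2 had 77.4 TPM in MuSCs and 0.29 TPM in muscle, 267 times as much, where it rested on 15 to 26 counts a library. Mymx had 11.0 TPM in MuSCs and 0.13 TPM in muscle, on 0 to 10 counts a library, and without 1 muscle library its muscle median reached 0.215 TPM. The ratio for Mymx was 84.7 by medians and 36.1 by means, so its place beside Cdon and Myof is uncertain. By medians the ratio was 45.2 for Cdon, 44.7 for Myof, 10.2 for Jam3 and 1.35 for Jam2. Leaving out 1 library at a time, the ratio of Jam2 ran from 0.922 to 1.78, so its direction was not settled. Tmem182 ran the other way, with 12.4 TPM in MuSCs and 147 TPM in muscle, a ratio of 0.0842. These ratios come from tables made separately and carry no test. In bulk samples fewer cells of a type and less RNA per cell cannot be told apart, and MuSCs are a small part of whole muscle. The MuSC libraries also held Myod1 at 532 to 958 TPM and Myog, a differentiation factor, at 40.0 to 254 TPM. Whether these cells were at rest was not tested, so their levels and ratios are not those of a known resting state.

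**Figure D1:**
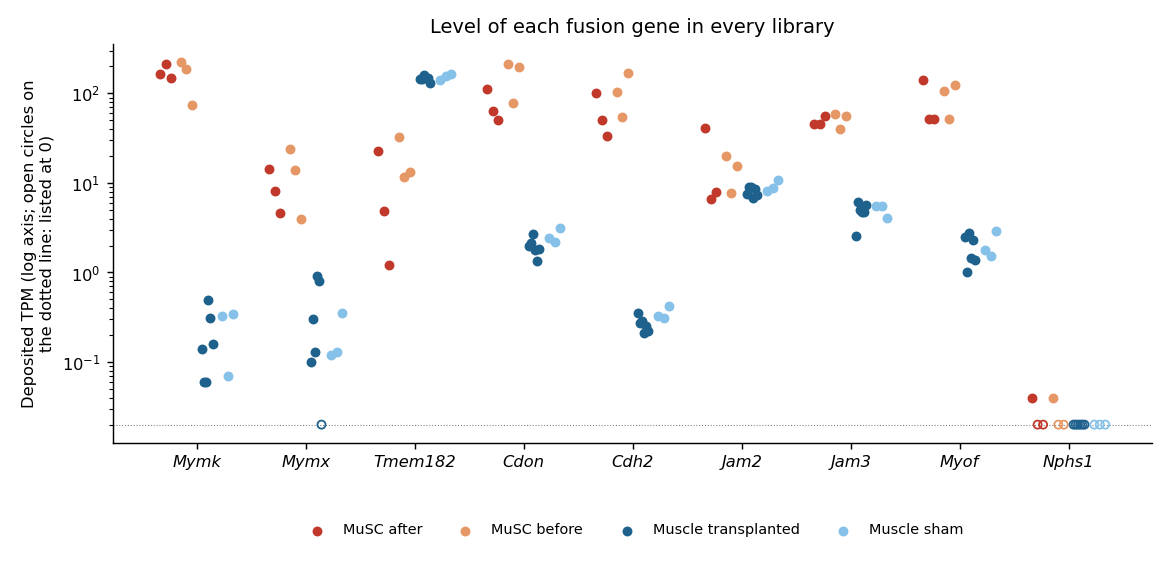
Levels of the 9 members in every library as TPM on a log axis, with open circles for genes listed at 0, grouped as MuSC after, MuSC before, muscle transplanted and muscle sham, 1 point a library. Mymk has a median of 176 TPM in MuSCs and 0.16 TPM in muscle, whereas Tmem182 has 12.4 TPM in MuSCs and 147 TPM in muscle.

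Most of the named genes that work with the members were detected in MuSCs. Myod1, which drives commitment to muscle, was at 532 to 958 TPM after and 538 to 918 TPM before, against 11.0 to 14.5 TPM in transplanted and 13.4 to 19.9 TPM in sham muscle. Myog, the differentiation factor that acts upstream of Mymk and Mymx, was at 40.0 to 157 TPM after and 50.7 to 254 TPM before. Pax7, the factor of stem cell identity, was at 11.8 to 17.9 TPM after and 14.1 to 21.6 TPM before. Embryonic myosin, Myh3, a product of early myotubes, was at 12.7 to 470 TPM after and 153 to 285 TPM before. The adhesion genes Cdh15 (M-cadherin, 78.3 to 125 TPM after and 100 to 106 TPM before) and Itgb1 (integrin beta chain, 111 to 574 TPM after and 185 to 482 TPM before) were high. Boc (1.16 to 3.62 TPM after and 2.62 to 3.84 TPM before) and Neo1 (8.09 to 57.6 TPM after and 12.1 to 23.2 TPM before), partners of Cdon in its receptor complex, had lower medians than Cdon in both groups. Kirrel, which binds nephrin at cell contacts, had 13.2 to 27.7 TPM after and 14.1 to 26.2 TPM before. F11r, the relative of Jam2 and Jam3 also called JAM-A, had 11.6 to 19.3 TPM after and 9.55 to 16.3 TPM before. Among the genes that turn a contact into actin remodelling, Rac1 had 106 to 383 TPM after and 179 to 296 TPM before, and its activator Dock1 had 1.60 to 10.0 TPM after and 3.89 to 10.1 TPM before. Dysf, the ferlin that patches torn fibre membranes and a relative of Myof, had 8.44 to 10.2 TPM after and 7.91 to 15.7 TPM before. Cav3, the muscle caveolin, had 4.44 to 24.9 TPM after and 8.77 to 36.1 TPM before. Adgrb1 and Adgrb3, receptors named BAI1 and BAI3 that promote fusion in mouse myoblasts, had 0 counts in all 6 MuSC libraries, which allows up to 0.0260 CPM over their total.

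The comparison of MuSCs after with MuSCs before asked whether the fusion genes of remaining MuSCs differed once cells had been transplanted elsewhere. None of the 8 members tested passed edgeR's quasi-likelihood test at an adjusted p of 0.05, where 0.0% of the 13512 genes passed. Cdon, lower after transplantation in every mouse, was the 1 of the 8 members with an unadjusted p under 0.05, against 2.26% of all genes. Which member came nearest depended on the fit: with the mouse as a block the unadjusted p in edgeR's test was 0.0634 for Cdon and 0.0356 for Tmem182. DESeq2 called none of the members either, and called 0.118% of genes. Of the 8 log2 differences, 3 were positive and 5 negative, with a median of -0.33, while over all genes 51.4% were positive and 48.6% negative, with a median of 0.02. Nphs1 was too low to test.

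The fusogens came with wide spreads. Mymk had 134 CPM in after 5, 269 CPM in after 6 and 192 CPM in after 11, against 185 CPM in before 5, 229 CPM in before 6 and 63.2 CPM in before 11. The groups overlapped, and the low library was before 11. Its log2 difference, after minus before, was 0.32 ± 0.50 (SE, adjusted p = 0.873 in edgeR's test). Mymx had 3.99 CPM in after 5, 3.89 CPM in after 6 and 2.45 CPM in after 11, against 7.48 CPM in before 5, 6.75 CPM in before 6 and 1.38 CPM in before 11. Before 11 again had the lowest value, within groups that overlapped. For Mymx the log2 difference was -0.59 ± 0.65 (adjusted p = 0.873). Both genes were thus lower after in mouse 5 and higher after in mouse 11, while in mouse 6 Mymk was higher and Mymx lower.

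Tmem182 was lower after in all 3 mice, with 40.5 CPM in after 5, 13.3 CPM in after 6 and 3.39 CPM in after 11, against 58.9 CPM in before 5, 30.4 CPM in before 6 and 24.4 CPM in before 11. Over all genes 10.3% were lower after in 3 of 3 mice. The groups overlapped because after 5 exceeded before 6 and before 11. The log2 difference was -0.99 ± 0.81 with an adjusted p of 0.873 in edgeR's test, and it was -2.20 without after 5. After 5 is the only number-first library of the after group, so leaving it out mixes name style further into the comparison. The mature fibre markers stood in the same order in the after group: their sum was 7271 TPM in after 5, 5106 TPM in after 6 and 903 TPM in after 11, and was 8356 TPM in before 5, 12230 TPM in before 6 and 3929 TPM in before 11. Their sum was lower after in all 3 mice, and 10 of 10 markers had a negative log2 difference, with a median of -0.81. In the before group their highest library was before 6, whereas for Tmem182 it was before 5. All 10 of these markers were detected, none was at 0 in a group, and their part in the Tmem182 values was not tested.

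**Figure D2:**
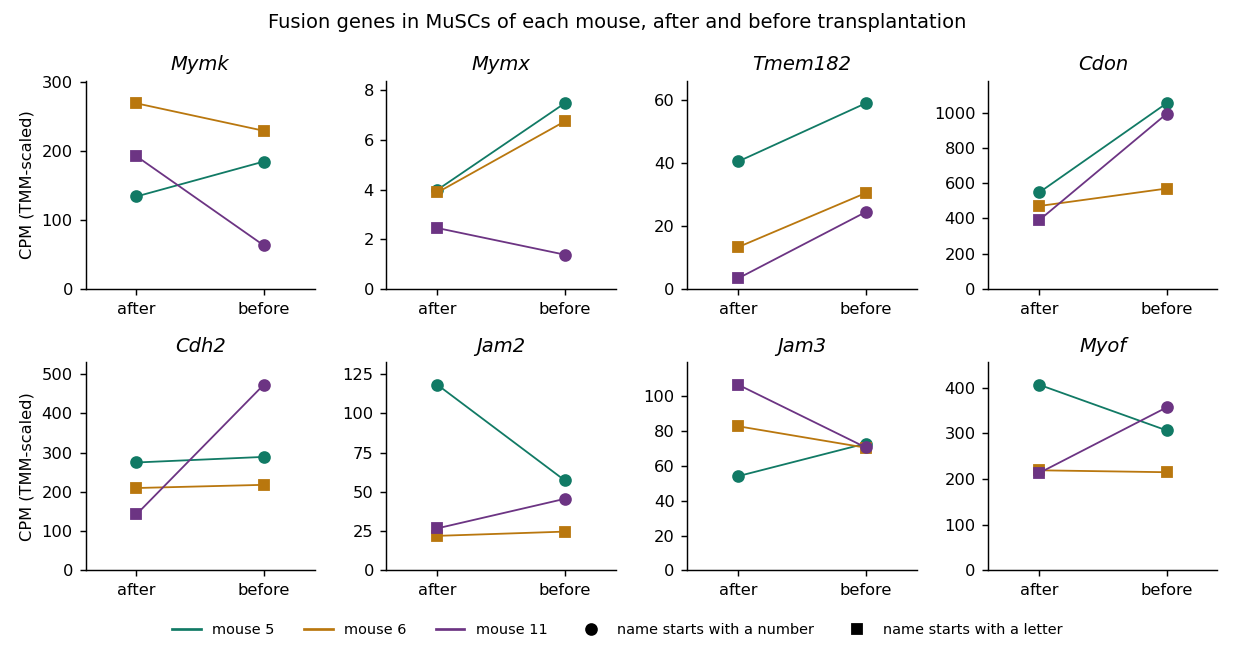
Values of the 8 members above the filter in MuSCs, in CPM on a separate axis for each gene, with a line joining the after and the before library of each mouse (5, 6 and 11). Cdon lies at 390 to 547 CPM after and 570 to 1053 CPM before, and the other 7 members overlap between the groups.

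Cdon, a receptor of the immunoglobulin family that binds cadherins and sets off differentiation, had 547 CPM in after 5, 470.5 CPM in after 6 and 390 CPM in after 11, against 1053 CPM in before 5, 569.5 CPM in before 6 and 993 CPM in before 11. All 3 values after lay below all 3 before, although after 5 and before 6 were close. The mean was 469 ± 78.6 CPM after and 872 ± 264 CPM before (SD, n = 3 each). The log2 difference was -0.89 ± 0.34, with an unadjusted p of 0.0325 and an adjusted p of 0.873 in edgeR's test. Cdon was 1 of 8 members whose groups did not overlap, a property of 6.33% of all genes, with 2.98% lower after in this way. In number-first libraries alone the log2 difference was -0.89, and in letter-first libraries alone it was -0.41.

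Cdh2, N-cadherin, the adhesion protein that Cdon can bind, had 275 CPM in after 5, 209.7 CPM in after 6 and 142.5 CPM in after 11, against 289 CPM in before 5, 218 CPM in before 6 and 472.5 CPM in before 11. Mice 5 and 6 differed little, and mouse 11 had the wide gap. Mouse 11 is also the one mouse whose libraries differ in name style, letter-first after and number-first before. The widest within-mouse log2 differences of Cdh2 (-1.73), Cdon (-1.35) and Tmem182 (-2.81) were all in that mouse, so the styles and the surgery cannot be told apart there. N-cadherin's log2 difference was -0.64 ± 0.39 (adjusted p = 0.873). Cdh2 thus shared with Cdon and Tmem182 a lower value after in 3 of 3 mice.

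Jam2 and Jam3 are junctional adhesion molecules whose binding to each other is needed for fusion in zebrafish. Jam2 had 118 CPM in after 5, 22.0 CPM in after 6 and 26.8 CPM in after 11, against 57.3 CPM in before 5, 24.7 CPM in before 6 and 45.5 CPM in before 11. After 5 stood above all other libraries. The summed fibroadipogenic markers (8 genes) also stood highest in after 5, at 187 TPM, against 9.55 to 14.5 TPM in the other after libraries and 4.54 to 19.1 TPM before, with Dcn and Lum at 0 in both groups and Dpt at 0 after. Endothelial markers (10 genes) were 3.15 to 7.12 TPM in sum after and 2.97 to 6.80 TPM before, with Emcn and Tie1 at 0 in both groups, Erg at 0 after, and Cdh5 and Cldn5 at 0 before. Their part in the Jam2 values was not tested. The log2 difference of Jam2 was 0.39 ± 0.69 (adjusted p = 0.877 in edgeR's test). It was -0.82 without after 5, which left only letter-first libraries in the after group. Jam3 had 54.1 CPM in after 5, 82.7 CPM in after 6 and 106.5 CPM in after 11, against 72.8 CPM in before 5, 70.4 CPM in before 6 and 70.6 CPM in before 11. The before libraries lay close together and within the range of those after. Its log2 difference was 0.19 ± 0.30 (adjusted p = 0.873).

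Myof, myoferlin, a ferlin that acts in membrane traffic of fusing myoblasts, had 406 CPM in after 5, 219 CPM in after 6 and 213 CPM in after 11, against 306.5 CPM in before 5, 215 CPM in before 6 and 357 CPM in before 11. Its high and low libraries were present in both groups. The log2 difference was -0.07 ± 0.36 (adjusted p = 0.958).

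The naming of the columns moved with several members. Cdh2, Jam2 and Myof had higher CPM in the 3 number-first than in the 3 letter-first libraries without overlap, while Mymk was lower in the number-first libraries without overlap. Number-first libraries were higher without overlap for 28.2% of all genes tested and lower for 28.6%. In TPM 5 of the 8 members (Cdh2, Jam2, Myof, Cdon and Tmem182) were higher in number-first libraries without overlap, as were 46.8% of all genes tested, and 3 members overlapped. The bases of gene length that the deposited counts and FPKM imply for Jam2 also followed the names, at 3913 to 4009 in number-first and 2985 to 3045 in letter-first libraries. With name style as a term in the fit, the log2 difference was -0.65 for Cdon, -0.94 for Tmem182, -0.39 for Cdh2, 0.60 for Jam2, 0.06 for Mymk, -0.62 for Mymx, 0.01 for Jam3 and 0.15 for Myof, and no member passed. Of the members lower after in every mouse, Cdh2 was at -0.46 in number-first and -0.31 in letter-first libraries alone, and Tmem182 was at -0.03 and -1.87. Mymk was at 0.12 in number-first and 0.00 in letter-first libraries, Mymx at -0.15 and -1.09, and Jam2 at 1.21 and -0.02. What the names mark and the groups could be separated only in part, since the after group held 1 number-first library and the before group held 2.

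**Figure D3:**
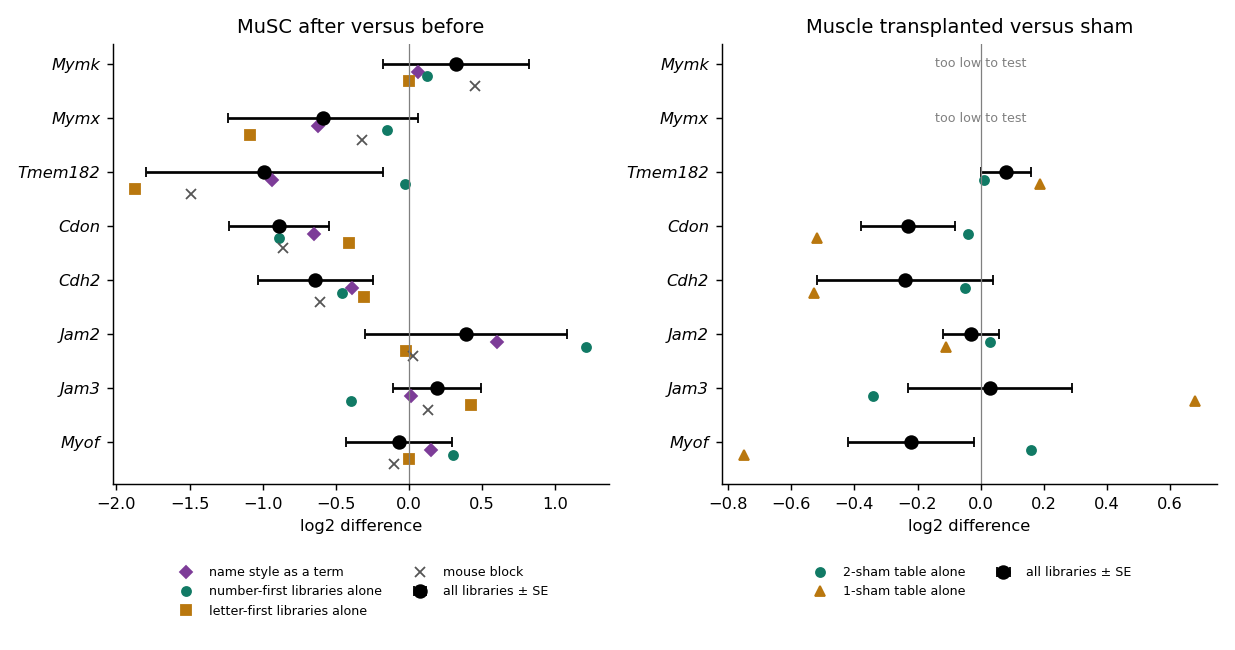
Log2 differences of the members, MuSC after minus before on the left and muscle transplanted minus sham on the right, black points with bars of 1 SE for all libraries and coloured points for subsets or other fits. Cdon is negative in each MuSC fit drawn, from -0.89 to -0.41, whereas Jam3 is -0.40 in number-first and 0.42 in letter-first libraries.

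Neither fusogen was among the 5 genes whose profile over the 6 MuSC libraries was nearest to the other's. By the root mean square difference of log2(TPM + 1), centred on its mean, among 9099 genes, the profile nearest to Mymx was that of Pgam2, a muscle glycolytic enzyme, at 0.275 log2 units. Myog was next at 0.298, followed by the myosin light chain Myl4 (0.344), Gm38312 (0.36) and Sema3b (0.367). Mymk lay at 0.571 from Mymx, rank 85 among the profiles nearest to Mymx, while Mymx was rank 2471 among those nearest to Mymk. Nearest to Mymk were Pla2g7 (0.146), Pam16 (0.194), Rpusd3 (0.236), Sgca, a dystrophin-complex sarcoglycan (0.241), and Nectin2, an adhesion molecule (0.254). Myog was at 157 TPM in after 5, 131 TPM in after 6 and 40.0 TPM in after 11, and at 254 TPM in before 5, 184 TPM in before 6 and 50.7 TPM in before 11, so both Myog and Mymx were lowest in the 2 libraries of mouse 11.

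**Figure D4:**
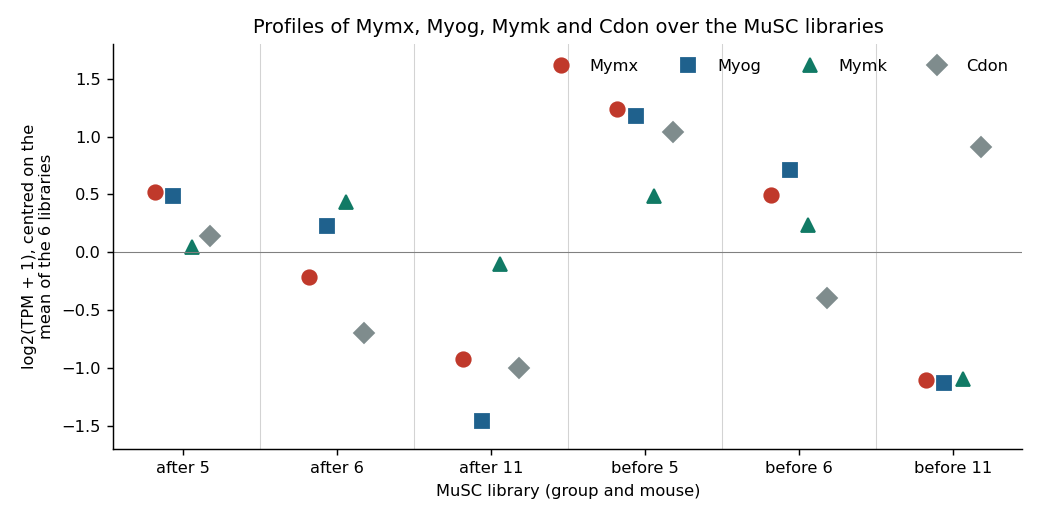
Profiles of Mymx, Myog, Mymk and Cdon over the 6 MuSC libraries as log2(TPM + 1) centred on the mean of each gene, 1 point a library. Mymx and Myog differ by a root mean square of 0.298, and Mymx and Mymk by 0.571.

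Of 6 lists of genes that work around the members, none held a gene past the test in MuSCs, in either direction. Other adhesion genes had 13 positive and 4 negative differences among 17 tested of 22 (median 0.30), and Cd9, a tetraspanin of the fusing cell surface, was at 0.92 ± 0.27 and Ncam1, the neural cell adhesion molecule of myoblasts, at -0.62 ± 0.31. Genes of actin remodelling at the contact had 6 positive and 13 negative differences among 19 of 22 (median -0.31), with Elmo2 at 0.50 ± 0.25 and Wipf1 at -0.40 ± 0.24. Partners of Cdon had 3 positive and 7 negative of 10 (median -0.15), with Neo1 at 0.52 ± 0.53 and Spag9 at -0.71 ± 0.61. Ferlins and membrane repair genes had 6 positive and 6 negative among 12 of 16 (median 0.00), with Ehd1 at 0.69 ± 0.47 and Ano5 at -1.05 ± 0.80. Upstream regulators had 7 positive and 9 negative of 16 (median -0.09), with Tgfb1 at 0.69 ± 0.40 and Mef2a at -0.91 ± 0.65. Early myotube genes had 4 positive and 8 negative of 12 (median -0.11), with Actc1 at 0.50 ± 0.98 and Myh4, a fast adult myosin, at -1.33 ± 1.03. This list shares Acta1, Ckm and Myh4 with the mature fibre markers, so the signs counted for each are not separate observations. The median over all genes was 0.02. Without after 5 the difference was -3.42 for Myh4, -2.25 for Ano5, -1.87 for Mef2a, -1.62 for Spag9 and -0.36 for Neo1. Leaving out after 5 removes the only number-first library of the after group, so name style and surgery are harder to tell apart in these values.

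The comparison of transplanted with sham quadriceps asked whether the muscle's fusion genes differed between mice that had received cells and mice that had not. None of the 6 members tested passed edgeR's test, where 0.0% of 14375 genes passed. No member had an unadjusted p under 0.05, against 7.08% of all genes, and DESeq2, which called 0.0417% of genes, called no member. In no member did the groups fail to overlap, a property of 2.11% of genes. Of the 6 log2 differences 2 were positive and 4 negative, with a median of -0.12. Over all genes 49.9% were positive and 50.1% negative, with a median of -0.00.

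Tmem182, the most abundant member in muscle, ran from 298 CPM through a median of 325.5 CPM to 357.5 CPM in the 6 transplanted libraries, against 306 CPM in sham 3, 309.9 CPM in sham 192 and 301 CPM in sham 12. Transplanted libraries lay on both sides of the shams. The log2 difference, transplanted minus sham within the deposited tables, was 0.08 ± 0.08 (adjusted p = 0.860).

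Cdon ran from 8.75 CPM through 12.8 CPM to 15.1 CPM in transplanted muscle, against 15.2 CPM in sham 3, 12.6 CPM in sham 192 and 16.5 CPM in sham 12. Sham 192 lay within the transplanted range and the other shams above it. For Cdon in muscle the log2 difference was -0.23 ± 0.15 (adjusted p = 0.762). Cdh2 ran from 0.724 CPM through 0.890 CPM to 1.16 CPM in transplanted muscle, against 1.07 CPM in sham 3, 0.902 CPM in sham 192 and 1.25 CPM in sham 12. These rest on 15 to 26 counts a library, and the log2 difference was -0.24 ± 0.28 (adjusted p = 0.874).

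Jam2 was the steadiest of the adhesion members, from 27.1 CPM through 29.9 CPM to 32.3 CPM in transplanted muscle, against 28.3 CPM in sham 3, 28.4 CPM in sham 192 and 32.6 CPM in sham 12. Its log2 difference was -0.03 ± 0.09 (adjusted p = 0.956). Jam3 ran from 3.68 CPM through 7.48 CPM to 9.88 CPM in transplanted muscle, against 7.66 CPM in sham 3, 7.53 CPM in sham 192 and 5.18 CPM in sham 12. Transplanted 4 was lowest and transplanted 11 highest, and the log2 difference was 0.03 ± 0.26 (adjusted p = 0.988). Endothelial markers (10 of 10 detected) summed to 88.5 to 139 TPM in transplanted and 124 to 147 TPM in sham muscle, and their part in the values of Jam2 and Jam3, which endothelium also expresses, was not tested.

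Myof ran from 3.07 CPM through 4.00 CPM to 4.46 CPM in transplanted muscle, against 3.91 CPM in sham 3, 3.71 CPM in sham 192 and 6.14 CPM in sham 12, the highest of all. The log2 difference was -0.22 ± 0.20 (adjusted p = 0.826). Counts were 66 to 128 a library, and the gene length they imply with FPKM varied from 1777 to 4875 bases. Within the deposited tables (2-sham with transplanted 4, 14 and 94 and sham 3 and 192; 1-sham with transplanted 5, 6 and 11 and sham 12) Myof was at 0.16 in the 2-sham and -0.75 in the 1-sham table. Jam3 likewise was at -0.34 in the 2-sham and 0.68 in the 1-sham table, and Jam2 at 0.03 and -0.11. Cdon was at -0.04 and -0.52, Cdh2 at -0.05 and -0.53 and Tmem182 at 0.01 and 0.19, each with the same sign in both tables. Sham 12, the one sham of its table, also had the highest sums of fibroadipogenic markers (497 TPM, against 250 to 327 TPM in the other muscle libraries), adipocyte markers (1094 TPM, against 136 to 506 TPM) and macrophage markers (71.8 TPM, against 27.1 to 45.2 TPM). All 8 fibroadipogenic, 6 adipocyte and 6 macrophage markers were detected in both groups, and their part in these values was not tested.

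The fusogens were at the edge of detection in muscle. Mymk had 27 counts in all in the 6 transplanted libraries, from 1 to 11 each, and 11 counts in the 3 shams, from 1 to 5 each. Mymx had 20 counts in the transplanted libraries, from 0 in transplanted 11 to 10 in transplanted 5, and 5 counts in the shams, from 1 to 3 each. Both were highest in transplanted 5, with 11 counts of Mymk and 10 of Mymx. Fitted without a filter on low counts, the log2 difference was -0.27 ± 0.82 for Mymk and 0.62 ± 1.07 for Mymx. A difference between transplanted and sham muscle was not detectable for either at this depth.

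**Figure D5:**
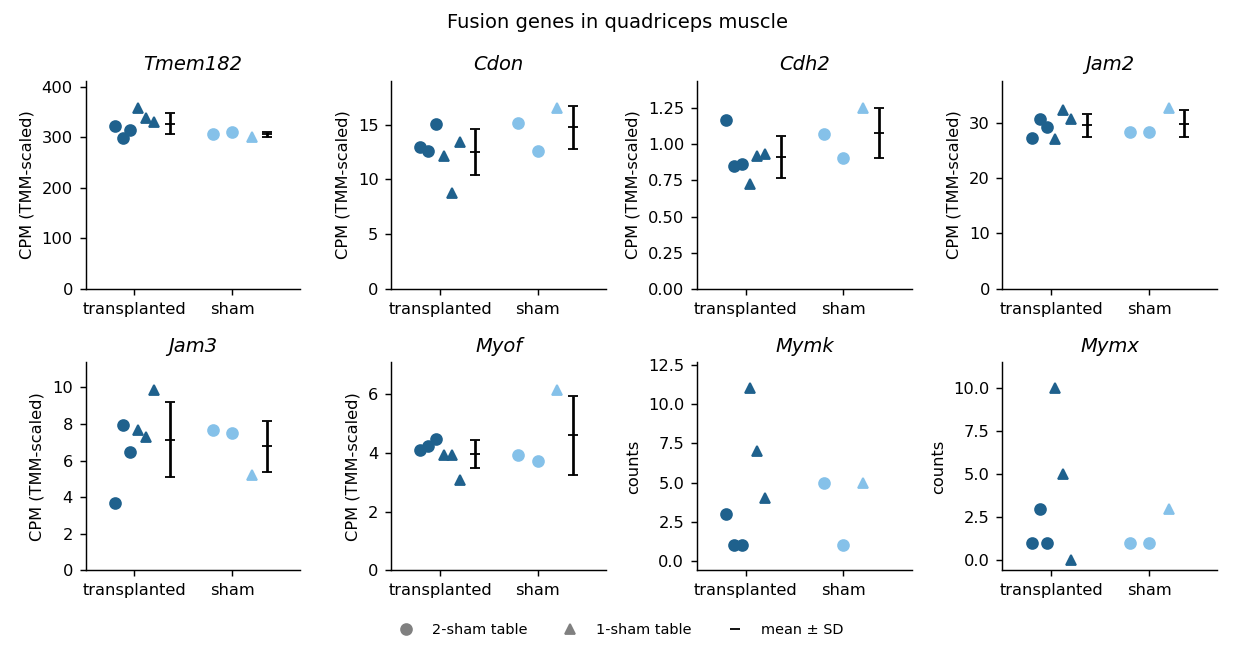
Values of the members in the 6 transplanted and 3 sham muscle libraries, in CPM for those tested and in counts for Mymk and Mymx, with a separate axis for each gene, marked by deposited table, and bars of mean ± SD for the genes in CPM. Tmem182 lies at 298 to 357.5 CPM in transplanted and 301 to 309.9 CPM in sham muscle, while Mymk reaches 11 counts and Mymx 10.

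The same 6 lists held no gene past the test in muscle. Other adhesion genes had 7 positive and 13 negative differences among 20 of 22 (median -0.06), with Esam, an endothelial adhesion molecule, at 0.15 ± 0.13 and Cdh11 at -0.63 ± 0.33. Actin remodelling genes had 7 positive and 13 negative among 20 of 22 (median -0.02), with Crkl at 0.08 ± 0.08 and Wasl at -0.23 ± 0.11. Partners of Cdon had 3 positive and 6 negative among 9 of 10 (median -0.02), with Neo1 at 0.09 ± 0.10 and Gas1 at -0.35 ± 0.19. Ferlins and membrane repair genes had 6 positive and 8 negative among 14 of 16 (median -0.01), with Dysf at 0.27 ± 0.15 and Ehd2 at -0.25 ± 0.09. Upstream regulators had 6 positive and 10 negative of 16 (median -0.03), with Srf at 0.21 ± 0.08 and Myf5, a factor of MuSCs and myoblasts, at -1.0 ± 0.41. Early myotube genes had 7 positive and 4 negative among 11 of 12 (median 0.02), with Acta1 at 0.26 ± 0.13 and Myh8, perinatal myosin, at -0.14 ± 0.46.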

How the data were processed

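The authors deposited 3 tables, 1 of MuSCs and 2 of muscle, with estimated counts, TPM and FPKM per gene, per the file headers. Trizol RNA and the NEBNext Ultra kit were used, per the labels' protocols. GRCm38 and mm10 are named in the submitters' processing notes. The aligner and quantifier were not given in the sources used here. Another 3 columns matched no labelled sample and were not used.

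The deposited estimated counts were rounded and tested with edgeR 4.0.16 in R 4.3.3 (quasi-likelihood test, filterByExpr with a minimum count of 10, TMM scaling, Benjamini-Hochberg adjustment, 2-sided, threshold 0.05), adjusted over the whole table. MuSCs were fitted as 3 after against 3 before, without covariates, and muscle as 6 transplanted against 3 sham with the deposited table as a term. CPM values use TMM-scaled library sizes, and the SE is the log2 difference over the root of F. TPM was used as deposited. On simulated counts the MuSC fit recovered 100% of 200 genes changed by 2 on the log2 scale and called 13 others among 13742 genes. These counts had a fixed dispersion for all genes and no effect of name style. The spread of the real libraries was not simulated, nor were smaller changes, such as those of the members. The recovery therefore checks the code and does not show what the fit could detect in these data. Alternatives were RLE scaling, DESeq2 1.42.0, no low-count filter, leaving out each library, the mouse as a block, name style, each table alone, no table term and, added after seeing the data, offsets for the gene length implied by counts and FPKM.

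Each title in a group has its own mouse number, and these were read as separate animals. The mouse numbers were taken to pair the MuSC libraries because the labels call the cells autologous; deviations from group means correlated at 0.28 in mouse 5, 0.29 in mouse 6 and -0.32 in mouse 11 across 13672 genes. Between different mice of the same name style they reached 0.49 (after 11 with before 6) and 0.39 (after 5 with before 11), above every same-mouse value, so the pairing rests on the labels alone. All pairs of libraries in a group differed beyond sampling noise, with a chi-square of 16.72 to 461.84 per degree of freedom. Counting limits cover counting error only. Named genes were the members, 16 genes named whatever their values, the list genes with the highest and lowest signed F statistic and, for Mymk and Mymx, the 5 nearest profiles with a mean of at least 5 TPM. Members and lists were chosen with earlier results of these data known.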

Additional observations from a re-analysis of the deposited data

Results flagged for a closer look

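Jam3 differed in direction between the naming styles of the MuSC columns. In number-first libraries it had 54.1 CPM in after 5, against 72.8 CPM in before 5 and 70.6 CPM in before 11, a log2 difference of -0.40. In letter-first libraries it had 82.7 CPM in after 6 and 106.5 CPM in after 11, against 70.4 CPM in before 6, a log2 difference of 0.42. The after values lay below the before values in number-first libraries and above in letter-first libraries. Each direction rests on a lone library of a group, after 5 or before 6, and the difference between the styles was not tested.

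Myof differed in direction between the deposited muscle tables. In the 2-sham table it had 4.10, 4.24 and 4.46 CPM in the transplanted libraries, against 3.91 and 3.71 CPM in the shams, a log2 difference of 0.16. In the 1-sham table it had 3.91, 3.91 and 3.07 CPM in the transplanted libraries, against 6.14 CPM in the sham, a log2 difference of -0.75. This difference was not tested either, and in the 1-sham table the value rests on sham 12. That library had 497 TPM of fibroadipogenic, 1094 TPM of adipocyte and 71.8 TPM of macrophage markers in sum, the highest of the 9 muscle libraries, and their part was not tested.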

How the results depend on the processing

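No member passed edgeR's test, or DESeq2's, under any alternative run. Over all genes the 0 calls in MuSCs became 16 with DESeq2 and 43 in number-first libraries alone, and stayed 0 without each library in turn. In edgeR's test 305 genes had an unadjusted p under 0.05 with all libraries, 3545 without after 5, and 151 to 328 without any other library. Without after 5 every library of the after group was letter-first, so name style and surgery were harder to tell apart in that fit. The 0 calls in muscle became 6 with DESeq2, 12 with no low-count filter, 1 in the 2-sham table alone and 41 in the 1-sham table alone, and were 0 to 4 without each library in turn. Which genes these were was not compared. With the mouse as a block the log2 difference was -0.61 for Cdh2, -0.86 for Cdon, 0.03 for Jam2, 0.13 for Jam3, 0.45 for Mymk, -0.32 for Mymx, -0.10 for Myof and -1.49 for Tmem182, 0 genes passed, and pairing changed no call. The unadjusted p in that fit was 0.0634 for Cdon and 0.0356 for Tmem182. Muscle groups share no mouse numbers.

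Of 112 member values in MuSCs under alternatives 101 kept their sign and 11 did not, and of 96 in muscle 87 did and 9 did not. Signs that turned, the cause of which was not tested, were as follows. In letter-first libraries alone the MuSC difference was -0.02 for Jam2, 0.00 for Myof, -0.25 for Neo1 and -0.42 for Actc1. In number-first libraries alone it was -0.40 for Jam3, 0.30 for Myof and 0.01 for Spag9, and with name style as a term it was 0.15 for Myof. In the 2-sham table alone the muscle difference was 0.03 for Jam2, -0.34 for Jam3 and 0.16 for Myof. It was 0.02 for Myof with length offsets, and for Myh8 it was 1.65 in the 1-sham table alone and 0.01 without the table term. Leaving out each library in turn, MuSC differences ran -0.07 to 0.68 for Mymk, -0.82 to 0.76 for Jam2, -0.06 to 0.39 for Jam3, -0.45 to 0.10 for Myof, -0.36 to 0.86 for Neo1 and -0.15 to 1.01 for Actc1. Muscle differences ran -0.06 to 0.03 for Jam2, -0.33 to 0.23 for Jam3, -0.35 to 0.16 for Myof, -0.01 to 0.16 for Neo1 and -0.94 to 0.66 for Myh8. Cdon stayed negative in MuSCs, from -1.12 to -0.41, and Tmem182 ran from -2.20 to -0.03. Within 1 table's lone sham, or a style's lone library of a group, that library is assumed to vary like the others. Depth limits Mymk, Mymx and Nphs1 in muscle and Nphs1 in MuSCs.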
